A study of Homo sapiens with 18 samples.

Results

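In MCF10A-Er-Src cells treated with triptolide (TPL), 522 RNA polymerase II (RNAPII) peaks appeared in the promoter peak lists at places where neither list of DMSO-treated cells had a peak. These regions were chosen by the lists themselves. The peaks of the 2 TPL lists were merged where they overlapped, which gave 9393 regions, and the 522 that shared no base with a peak of either DMSO list were kept. Over all 4 lists the merged peaks made 11979 regions, of which 6834 were in every list and 1543 were in both DMSO lists only. Of the 522 regions, 329 were in the list of NT + TPL cells only, 101 in the list of TAM + TPL cells only and 92 in both. Absence from a DMSO list chose these regions and is therefore no result, and the lists give no peak height, so how much RNAPII lay at them is not known. The RNA of the genes that start in them was measured in separate libraries and is tested below.

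MCF10A-Er-Src is an immortalized human breast epithelial line that carries v-Src fused to the ligand-binding domain of the oestrogen receptor. Cells without tamoxifen (NT) are untransformed, and tamoxifen (TAM) switches the kinase on and transforms them. Both were given DMSO or a single dose of TPL for 4 h, which made 4 groups named NT, NT + TPL, TAM and TAM + TPL, all of them carrying the fusion gene. Each group had 2 RNA-Seq libraries and 2 RNAPII ChIP-Seq samples, and 2 inputs made up the 18 samples. The inputs were of NT and TAM cells without TPL, so TPL-treated cells had no input of their own. The peak files hold 1 list per condition and their peak names carry replicate 1 only. To start transcription, RNAPII is placed on a promoter by general factors, and TFIIH then opens the DNA at the start site through the translocase XPB. After the first bases RNAPII commonly pauses a short way downstream until it is released into the gene. TPL binds XPB covalently and blocks DNA opening, and it is known to lead to the loss of RNAPII protein.

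The promoters below were taken from genome build GRCh37 (hg19), the build of the peak lists, to show the kinds of start site that carried these peaks. Each run reads 5′ to 3′ on the strand of the gene, from 180 bases before the annotated transcription start site (TSS) to 20 bases from it, the TSS included. The capitals mark every match on either strand to CCAAT, the box bound by NF-Y, to GGGCGG, the core of an Sp1 site, to TATAAA, the TATA box, and to TTTGAA, the element of cell cycle promoters known as CHR. No 2 matches overlapped in these runs. The first 5 are genes whose RNA rose with TPL in at least 1 state, all from a promoter whose nearest DMSO peak was 20827 bases or more away.
CCDC62, chr12:123258939-123259138, plus strand: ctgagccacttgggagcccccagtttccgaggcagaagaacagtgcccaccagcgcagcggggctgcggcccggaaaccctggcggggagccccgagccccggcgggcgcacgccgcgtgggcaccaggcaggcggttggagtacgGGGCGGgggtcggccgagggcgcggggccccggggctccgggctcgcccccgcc
FGFR3, chr4:1794840-1795039, plus strand: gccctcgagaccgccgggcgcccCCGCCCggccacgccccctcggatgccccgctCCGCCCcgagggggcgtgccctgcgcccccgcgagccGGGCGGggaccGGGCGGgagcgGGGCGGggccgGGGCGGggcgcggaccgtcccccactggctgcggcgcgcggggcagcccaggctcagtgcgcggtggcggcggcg
UNC5B, chr10:72972147-72972346, plus strand: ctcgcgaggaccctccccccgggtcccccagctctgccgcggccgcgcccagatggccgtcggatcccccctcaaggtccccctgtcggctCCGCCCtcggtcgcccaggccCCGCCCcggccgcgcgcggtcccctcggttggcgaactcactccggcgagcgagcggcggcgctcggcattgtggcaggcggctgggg
ULBP2, chr6:150262970-150263169, plus strand: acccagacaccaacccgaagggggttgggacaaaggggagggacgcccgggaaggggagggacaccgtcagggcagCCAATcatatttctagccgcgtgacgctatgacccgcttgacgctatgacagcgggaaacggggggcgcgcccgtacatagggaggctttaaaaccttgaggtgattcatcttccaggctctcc
ARHGAP26, chr5:142149762-142149961, plus strand: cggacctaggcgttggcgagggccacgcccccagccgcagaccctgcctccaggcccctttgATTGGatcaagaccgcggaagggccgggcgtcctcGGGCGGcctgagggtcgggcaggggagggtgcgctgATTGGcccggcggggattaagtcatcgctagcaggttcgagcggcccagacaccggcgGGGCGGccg
Their GC content lay between 60.5% in ULBP2 and 87.5% in FGFR3, and FGFR3 held 6 copies of the Sp1 core. Next are an annotated start within intron 18 of NXF1, whose RNA also rose, and an annotated start of NR2F6, whose RNA fell, in a region centred in intron 1 and 1547 bases from the canonical start.
NXF1, chr11:62562081-62562280, minus strand: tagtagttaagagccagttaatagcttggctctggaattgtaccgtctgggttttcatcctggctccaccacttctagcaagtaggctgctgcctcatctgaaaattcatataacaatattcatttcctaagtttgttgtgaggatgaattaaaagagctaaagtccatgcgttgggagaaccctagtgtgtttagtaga
NR2F6, chr19:17355294-17355493, minus strand: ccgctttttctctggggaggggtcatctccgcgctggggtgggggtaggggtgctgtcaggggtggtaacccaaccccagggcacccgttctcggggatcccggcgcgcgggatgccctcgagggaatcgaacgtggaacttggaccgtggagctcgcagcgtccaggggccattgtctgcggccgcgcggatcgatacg
The NXF1 run was the poorest in GC of those shown, at 41.0%, and neither it nor NR2F6 held any of the 4 motifs. The last pair are ASPM and BUB1B, which act in mitosis and were in the NT + TPL list only.
ASPM, chr1:197115780-197115979, minus strand: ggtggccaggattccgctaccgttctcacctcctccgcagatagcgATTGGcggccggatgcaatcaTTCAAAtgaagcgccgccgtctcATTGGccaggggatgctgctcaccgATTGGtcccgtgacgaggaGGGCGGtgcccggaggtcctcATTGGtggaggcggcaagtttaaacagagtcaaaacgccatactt
BUB1B, chr15:40453090-40453289, plus strand: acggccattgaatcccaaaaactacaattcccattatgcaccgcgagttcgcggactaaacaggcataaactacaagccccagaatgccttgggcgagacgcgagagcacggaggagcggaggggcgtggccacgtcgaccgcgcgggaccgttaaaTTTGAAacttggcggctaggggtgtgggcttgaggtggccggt
ASPM held 4 CCAAT boxes and 1 TTTGAA element, and BUB1B held 1 TTTGAA element.

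The 522 regions were narrow. Their median width was 264.5 bases, with quartiles of 195 and 379, against 933 bases for the regions in all 4 lists and 525 bases for those in both DMSO lists only. A wide region is more likely to overlap a DMSO peak, so the rule itself favours narrow ones. A region in more than 1 list is the union of overlapping peaks, so it is at least as wide as each of them. The widths of regions in all 4 lists or in both DMSO lists are thus partly set by the merging. Before merging, median peak widths lay between 406 bases for TAM and 632 bases for NT. Regions found in both TPL lists had a median of 366 bases. Those of the NT + TPL list only had 261 bases and those of the TAM + TPL list only 210 bases. Merging partly sets that difference too, and its share was not tested. The distance to the nearest DMSO peak fell into 2 groups, and 262 of the 522 regions (50.2%) lay within 1000 bases of one. Another 187 lay more than 10000 bases from any DMSO peak. Of the regions in both TPL lists 30 of 92 lay within 1000 bases, compared with 181 of 329 in the NT + TPL list only and 51 of 101 in the TAM + TPL list only. At the edge of the rule, the 3 nearest members were separated from a DMSO peak by 1 base at LUZP1, 4 bases at SLC27A4 and 8 bases at a site on chromosome 1. The 3 regions left out by the smallest overlap shared 2 bases with a DMSO peak at FAM111A, 8 bases at a site on chromosome 15 and 10 bases at INPP5E. If 50% of a TPL region had to be covered before it counted as shared, 837 regions would have been members, and if a DMSO peak within 1000 bases counted as shared, 260.

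**Figure D1:**
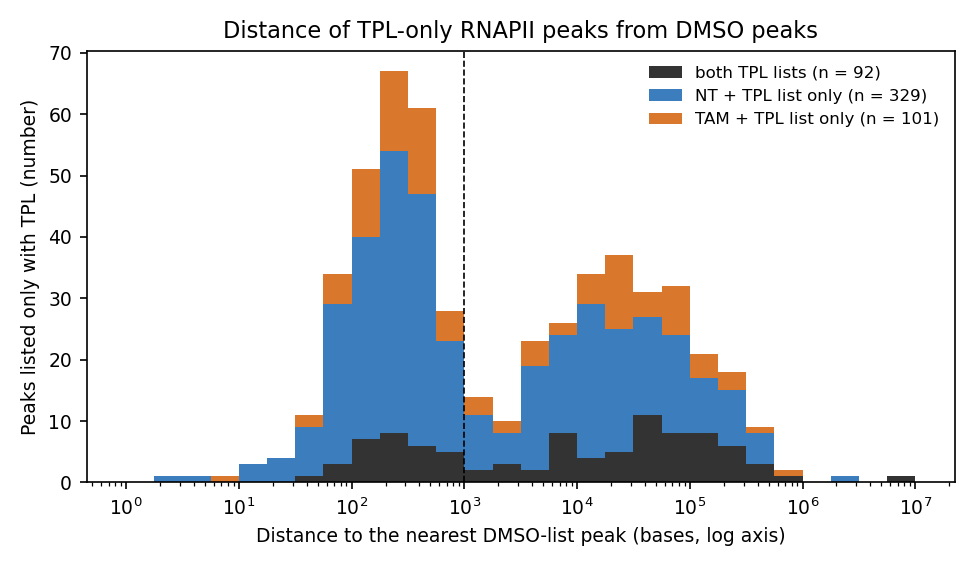
Number of TPL-only regions against the distance to the nearest peak of a DMSO list, in bases on a log axis. Bars are stacked by the TPL list that held the region (329 NT + TPL only, 101 TAM + TPL only, 92 both), the dashed line marks 1000 bases, and 262 regions lie to its left.

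The 4 lists were not called alike, which bears on this membership. The names of the peaks carry a cutoff of 0.02 in the NT, NT + TPL and TAM + TPL lists and a q of 0.1 in the TAM list. In the TAM list 4584 of 11056 peaks bear a letter after their number, and none do in the other 3 lists. The lists held 11222 peaks for NT, 8653 for NT + TPL and 8464 for TAM + TPL. What part these settings, or the lack of an input from TPL-treated cells, had in the 522 regions was not tested.

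Many of the regions did not sit on an annotated start. Of the 497 on the main chromosomes, 254 (51.1%) held a TSS of GENCODE release 44 and 485 (97.6%) lay within 1000 bases of one, whereas 98.9% of the regions in all 4 lists held a TSS. The other 25 regions lay on alternative haplotype contigs, for which GENCODE gives no TSS here. A TSS was held by 70 of 90 regions in both TPL lists (77.8%), by 134 of 311 in the NT + TPL list only (43.1%) and by 50 of 96 in the TAM + TPL list only (52.1%). Of all 497 regions, 196 were centred in an intron of a protein-coding gene, 115 within 1000 bases upstream of one, 81 in a 5′ untranslated exon and 41 in a coding exon. For 109 of them (21.9%) the centre lay inside a protein-coding gene and more than 1000 bases from its canonical start, against 6.93% of the regions in all 4 lists. Regions in both DMSO lists only held a TSS in 85.5%. The rule that chose the members thus left out many starts by itself, and these shares are described only.

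Around the canonical start (that of the transcript which Ensembl takes as representative), 381 regions were centred within 1000 bases. Their median position was 35.5 bases downstream of it, near the 43.0 bases of the 6394 regions in all 4 lists, but they spread further, with an upper quartile of 482 bases against 158 bases. Among the 200 of these that also had a DMSO peak within 1000 bases, 148 lay downstream of that peak in the direction of the gene and 52 upstream. The NT + TPL list only gave 103 downstream and 38 upstream, the TAM + TPL list only 29 and 8, and both lists 16 and 6. Thus in each class the TPL-only region next to a DMSO peak lay more often on the gene side of it. The wider spread of the positions is partly set by the rule. A region beside a DMSO peak could not overlap it, and most regions of the DMSO lists held a TSS.

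**Figure D2:**
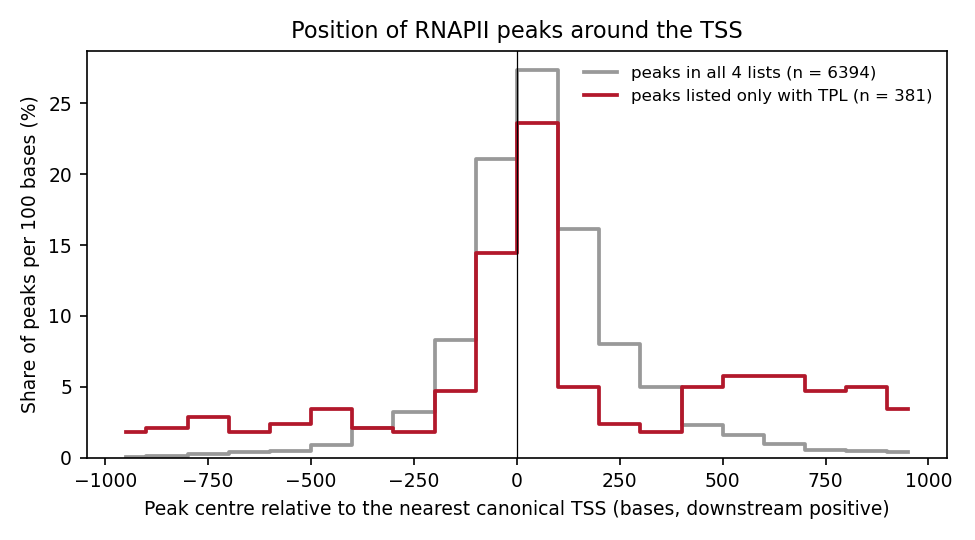
Share of regions per 100 bases against the position of the region's centre from the nearest canonical TSS, in bases, with downstream positive. The 381 TPL-only regions (red) have a central peak like the 6394 regions of all 4 lists (grey) and a second rise between about 400 and 1000 bases downstream. The distance from the TSS is partly set by the rule, as these regions could not overlap a DMSO peak.

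A few TPL-only regions were broad, and 14 (2.82%) were over 1500 bases wide. Several of these lay within or past the body of a gene. The widest spanned 10518 bases (chr5:179028849-179039366), from intron 14 of RUFY1 past its last exon, over the antisense gene RUFY1-AS1, and it ended 1813 bases from the 3′ end of HNRNPH1, a splicing regulator. At NXF1, which exports mRNA from the nucleus, 3643 bases from intron 13 to intron 19 of a gene with 21 exons were covered (chr11:62560541-62564183). In UBXN6, a cofactor of the p97 ATPase, there were 2 such regions, of 3589 and 2794 bases. One of 2077 bases lay over exons 3 to 7 of GTPBP2, and one of 1612 bases over exons 7 and 8 of EIF5, a translation initiation factor. A region of 2180 bases lay 14025 bases past the 3′ end of SRSF3, another splicing factor.

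The TSSs inside the 254 regions belonged to 283 genes, of which 236 encode proteins and 32 are long noncoding RNAs. For 202 genes (71.4%) no annotated TSS lay in a DMSO peak, and the other 81 had a different TSS in one. RNA entries were found for 257 genes, and 253 entries from 241 genes passed the filter on low counts and were tested. These genes were not silent under DMSO. Over the 254 genes with a distinct entry the median level was 4.38 FPKM in NT and 4.33 FPKM in TAM cells (mean of 2 libraries per gene), compared with 10.3 and 10.2 FPKM for genes of the regions in all 4 lists. All 4 DMSO libraries were at 1 FPKM or more for 171 of the 254 (67.3%), and all 4 were below 1 FPKM for 46 (18.1%). With TPL the medians were 5.70 FPKM in NT and 5.71 FPKM in TAM cells, while genes of the regions in all 4 lists had 8.57 and 8.81 FPKM. Genes whose region lay within 1000 bases of a DMSO peak were higher under DMSO (7.84 FPKM in NT) than those whose region lay further away (2.46 FPKM). FPKM is relative to the RNA of the library, so fewer cells and less RNA per cell cannot be told apart in these values, nor can a fall of all RNA be seen.

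Of the RNA entries of these genes, more were called higher with TPL than lower. The counts were scaled to the RNA of each library, so a rise or fall is relative to the other RNA. A rise in this sense cannot be told apart from a smaller loss than in other genes. In the edgeR quasi-likelihood test, where a call needed an adjusted p no higher than 0.001 and a log2 change no smaller than 1.2 in size, 10 of 253 entries rose and 2 fell in NT cells, where 1.22% of all 16948 tested entries rose and 2.71% fell. In TAM cells 10 rose and 2 fell, with 0.844% and 2.04% over all entries. In percent, the 10 rises were 3.95% and the 2 falls 0.791% of the members in either state. With the adjusted p allowed up to 0.05, 51 rose and 15 fell in NT cells (20.2% and 5.93%, against 9.78% and 11.3% of all entries), and 48 rose and 15 fell in TAM cells (18.97% and 5.93%, against 9.05% and 10.1%). With upper quartile scaling the split at 0.05 moved towards rises, to 57 rises and 9 falls in NT and 56 and 8 in TAM cells, and over all entries to 13.5% and 8.71% in NT and 12.8% and 7.32% in TAM cells. The median log2 fold change of the 253 entries was 0.36 in NT and 0.24 in TAM cells, and that of all entries was 0.09 and 0.05. The calls at 0.001 rested on having all libraries. In NT cells they were mostly lost whichever library was left out, and in TAM cells unless it was an NT + TPL library. Each such fit had fewer residual degrees of freedom for every entry. The share of all entries called at 0.001 in these fits is not given, so the loss cannot be read as particular to the members. At 0.05, with each library left out in turn, 35 rises (without NT replicate 2, 5.06% of all entries) to 48 rises (without NT + TPL replicate 1, 9.70% of all entries) were called in NT cells. In TAM cells it was 29 to 49 rises, 49 without either NT library (7.93% and 7.94% of all entries), the 2 lowest being 29 without TAM replicate 2 (4.30% of all entries) and 30 without TAM + TPL replicate 1 (3.70% of all entries). A gene that is low in DMSO could enter the test through the TPL libraries alone, which was so for 29 of the 253 entries (11.5%) and for 11.1% of all. Of the 224 others, 34 rose and 15 fell in NT cells at 0.05, or 15.2% and 6.70%, against 7.09% and 12.7% of all entries that passed in the DMSO libraries. In TAM cells 31 rose and 15 fell, or 13.8% and 6.70%, against 6.13% and 11.4%. At 0.001, 7 rises were left in NT cells (3.1%, against 1.18%) and 8 in TAM cells (3.57%, against 0.757%). The falls at 0.001 stayed at 2 in each state (0.893%, against 3.05% in NT and 2.29% in TAM cells).

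Among all tested member entries, most rises at 0.05 came from genes whose TPL-only region stood apart from DMSO peaks. The counts include entries that passed the filter through the TPL libraries alone. Of 166 entries with no DMSO peak within 1000 bases of the region, 42 rose and 7 fell in NT cells at 0.05 (25.3% and 4.22%), and 43 rose and 7 fell in TAM cells (25.9% and 4.22%). Of the 87 entries with a DMSO peak that near, 9 rose and 8 fell in NT cells and 5 rose and 8 fell in TAM cells. Their median log2 fold changes were 0.47 for the distant and 0.06 for the near regions in NT cells, and 0.36 and 0.10 in TAM cells. Where the canonical TSS lay in the region, 38 of 169 entries (22.5%) rose in each state. Where only another TSS did, 13 of 84 (15.5%) rose in NT and 10 of 84 (11.9%) in TAM cells. The shares of all entries were 9.78% rises and 11.3% falls in NT and 9.05% and 10.1% in TAM cells. Genes with a region in both DMSO lists only, which lost their listing with TPL, had 3.73% rises and 26.3% falls in NT cells. The 29 member entries that entered the test through the TPL libraries alone were kept in these counts. Low DMSO levels mark such entries, so their rises are partly set by the filter. Genes of the distant regions were also the lower ones under DMSO (median 2.46 against 7.84 FPKM in NT cells). The split by distance is not given without them. The difference between these classes was not tested.

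**Figure D3:**
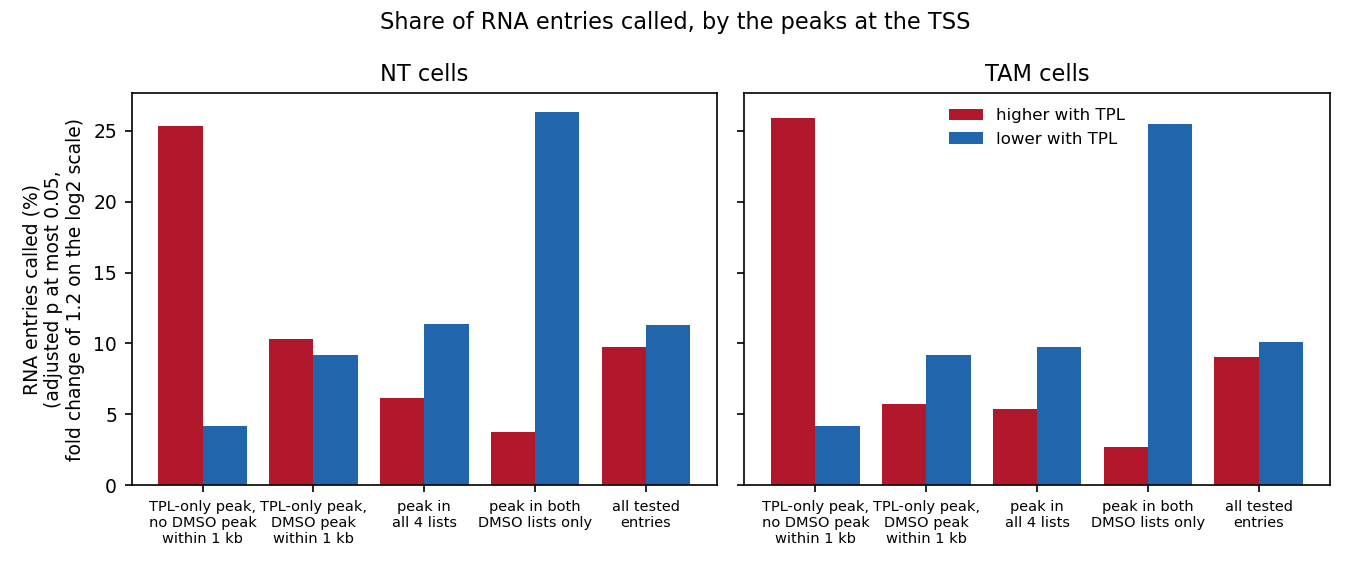
Percentage of tested RNA entries called higher (red) or lower (blue) with TPL in NT and TAM cells, with the adjusted p allowed up to 0.05 and the same fold change as above, by the peaks at the TSS of the gene. For TPL-only regions with no DMSO peak within 1000 bases 25.3% and 25.9% were higher, and for peaks in both DMSO lists only 26.3% and 25.4% were lower. Entries that passed the filter on low counts through the TPL libraries alone are included.

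Among the called genes were receptors and signalling proteins of the cell surface. FGFR3, a fibroblast growth factor receptor, was at 4.06 and 3.12 FPKM in the NT and 10.7 and 10.8 FPKM in the NT + TPL libraries, and at 1.04 and 0.81 FPKM in the TAM and 11.2 and 9.91 FPKM in the TAM + TPL libraries. The TPL libraries were above the DMSO libraries in both states, and the rise was called in TAM cells (log2 fold change 3.50 ± 0.234 SE, adjusted p = 0.000328 by edgeR) but not at 0.001 in NT cells (1.62 ± 0.209, adjusted p = 0.00177). UNC5B, a netrin receptor, had 4.49 and 4.8 FPKM in NT, 10.8 and 7.6 FPKM in NT + TPL, 0.940 and 0.860 FPKM in TAM and 7.05 and 7.84 FPKM in TAM + TPL cells. It too passed in TAM cells alone (log2 fold change 3.0 ± 0.199, adjusted p = 0.000328, against 0.97 ± 0.178, adjusted p = 0.00665 in NT cells). Both had less RNA in TAM than in NT cells under DMSO and came to like levels with TPL. The FGFR3 region was in the TAM + TPL list only (chr4:1794923-1795189) and the UNC5B region was in both lists (chr10:72972211-72972478).

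ULBP2, a ligand by which stressed cells are recognized through NKG2D, rose from 2.94 and 3.24 to 19.5 and 21.8 FPKM in NT cells (log2 fold change 2.73 ± 0.256, adjusted p = 0.000617 by edgeR). In TAM cells it rose from 0.910 and 1.44 to 13.9 and 13.4 FPKM (3.46 ± 0.276, adjusted p = 0.000435). Its region was in the NT + TPL list only (chr6:150263037-150263209), although the RNA rose in both states. ARHGAP26, a GTPase-activating protein, had a region in both lists (chr5:142149797-142150126), 443263 bases from a DMSO peak. Its RNA went from 3.01 and 2.53 to 9.59 and 11.2 FPKM in NT cells (1.92 ± 0.186, adjusted p = 0.000684) and from 2.30 and 1.91 to 13.1 and 11.6 FPKM in TAM cells (2.52 ± 0.191, adjusted p = 0.000398). In neither of these genes did the DMSO and TPL libraries overlap.

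Several transcription factors had a TPL-only region, and they did not move one way. MAFA, a basic leucine zipper factor known for its role in the insulin-producing cell, was at 0.05 and 0.1 FPKM in NT and at 7.87 and 7.09 FPKM in NT + TPL cells, and at 0.05 and 0.15 FPKM in TAM and 7.12 and 6.94 FPKM in TAM + TPL cells. With 3 counts in the NT and 272 in the NT + TPL libraries the ratio was 95.8 (95% exact interval 32.4 to 468), and with 4 and 262 counts in the TAM pair it was 67.5 (26.1 to 250), intervals that cover counting error only. Both rises were called (adjusted p = 0.000327 and 0.000403 by edgeR). With at most 3 counts in any DMSO library, MAFA passed the filter on low counts through the TPL libraries alone. Its rises are thus partly set by the filter. The nuclear receptor NR2F6 was the called factor that fell, from 51.4 and 44.7 to 13.9 and 8.86 FPKM in NT cells (log2 fold change -2.09 ± 0.210, adjusted p = 0.000767) and from 58.3 and 50.8 to 12.6 and 12.8 FPKM in TAM cells (-2.15 ± 0.209, adjusted p = 0.000797). Its region (chr19:17355039-17355322) held one of 2 annotated starts, and the other start lay in a DMSO peak. TCF3, an E protein that pairs with many helix-loop-helix factors, had 79.6 and 86.9 FPKM in NT, 33.8 and 22.4 FPKM in NT + TPL, 76.1 and 61.5 FPKM in TAM and 28.1 and 28.3 FPKM in TAM + TPL cells, a fall at the 0.05 level in both states (adjusted p = 0.00159 and 0.00334). SOX15 passed neither level, at 79.7 and 72.4 FPKM in NT and 66.2 and 31.3 FPKM in NT + TPL cells (adjusted p = 0.133).

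The immediate early genes, which respond to growth factors and stress without new protein, were looked at as a list of 21. EGR3, EGR4 and KLF2 had a TPL-only region. EGR3 was at 0.810 and 0.910 FPKM in NT, 12.8 and 5.87 FPKM in NT + TPL, 0.150 and 0.0900 FPKM in TAM and 3.92 and 3.32 FPKM in TAM + TPL cells, and its rise was called in TAM cells (log2 fold change 4.88 ± 0.506, adjusted p = 0.000965 by edgeR) and passed at 0.05 in NT cells (3.43 ± 0.412, adjusted p = 0.00138). For EGR4 the values were 1.45 and 1.96 FPKM in NT and 3.22 and 2.54 FPKM in NT + TPL cells (0.74 ± 0.439, adjusted p = 0.217), and 1.35 and 0.700 FPKM in TAM and 1.45 and 2.15 FPKM in TAM + TPL cells (0.76 ± 0.448, adjusted p = 0.226). KLF2 was at 0.97 and 1.2 FPKM in NT and 0.39 and 0.4 FPKM in NT + TPL cells (-1.43 ± 0.786, adjusted p = 0.189) and at 2.46 and 1.45 FPKM in TAM and 0.16 and 0.82 FPKM in TAM + TPL cells (-2.02 ± 0.770, adjusted p = 0.0849), and neither passed. Over the 22 tested entries of the list, 3 rose and 13 fell in NT cells and 3 rose and 11 fell in TAM cells at 0.05, with medians of -1.52 and -1.44. Of all entries, 9.78% rose and 11.3% fell in NT cells and 9.05% and 10.1% in TAM cells.

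NXF1 was the most abundant of the called genes. It had 60.8 and 50.5 FPKM in NT and 374 and 385 FPKM in NT + TPL cells (log2 fold change 2.85 ± 0.179, adjusted p = 0.000221 by edgeR), and 69.8 and 67.8 FPKM in TAM and 350 and 277 FPKM in TAM + TPL cells (2.34 ± 0.175, adjusted p = 0.000392). Of its 13 annotated starts 5 lay in a DMSO peak, and the nearest DMSO peak was 791 bases from the region. RUFY1-AS1, the noncoding gene under the widest region, was at 0.510 and 0.410 FPKM in NT and 18.2 and 18.2 FPKM in NT + TPL cells (5.25 ± 0.384, adjusted p = 0.000320). In TAM cells it went from 0.310 and 0.750 to 28.29 and 19.96 FPKM (5.47 ± 0.380, adjusted p = 0.000340). RUFY1-AS1 passed the filter on low counts through the TPL libraries alone, so its rises are partly set by the filter. The sense gene RUFY1, an endosomal protein, was at 32.6 and 28.1 FPKM in NT and 18.02 and 15.39 FPKM in NT + TPL cells, a change of -0.87 ± 0.139 that did not reach the fold change required. In TAM cells RUFY1 fell at the 0.05 level, from 35.8 and 34.1 to 15.8 and 15.2 FPKM (-1.23 ± 0.140, adjusted p = 0.00129 by edgeR). Strand use in the counting is not given in the sources used here, so reads of RUFY1 and of its antisense gene may not be separable. For NXF1, RUFY1-AS1 and RUFY1 the TPL and DMSO libraries did not overlap in either state.

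GCH1, NATD1 and CCDC62 were also among the 12 called genes with the smallest p. GCH1, which starts tetrahydrobiopterin synthesis, rose from 2.53 and 3.18 to 16.9 and 18.1 FPKM in NT cells (log2 fold change 2.60 ± 0.240, adjusted p = 0.000579 by edgeR). In TAM cells it was at 6.59 and 6.99 FPKM with DMSO and at 13.9 and 20.1 FPKM with TPL (1.15 ± 0.223, adjusted p = 0.00914). Its region lay 92 bases from a DMSO peak and 5 of its 6 starts were in one. NATD1 rose in NT cells, from 1.19 and 1.35 to 5.96 and 6.17 FPKM (2.24 ± 0.200, adjusted p = 0.000525), and NATD1 had 1.79 and 1.59 FPKM in TAM and 6.51 and 5.39 FPKM in TAM + TPL cells (adjusted p = 0.00116). CCDC62 had no read in either NT library and 3.40 and 5.27 FPKM in NT + TPL cells, at least 75.8-fold higher against a floor of 3 counts over the group (adjusted p = 0.000613). In TAM cells CCDC62 was at 0.07 and 0.1 FPKM with DMSO and at 6.15 and 4.26 FPKM with TPL, a ratio of 64.9 (95% exact interval 25.1 to 240, from 4 and 252 counts). CCDC62 passed the filter on low counts through the TPL libraries alone, so its rises are partly set by the filter. Beyond those 12 and EGR3, the calls were rises of ARG2, the mitochondrial arginase, and EPHA4, an ephrin receptor, and a fall of TFG, which acts at endoplasmic reticulum exit sites (88.6 and 85.7 to 35.6 and 27.3 FPKM in NT cells). In all, 16 entries were called in at least 1 state and 8 were called in the same direction in both.

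**Figure D4:**
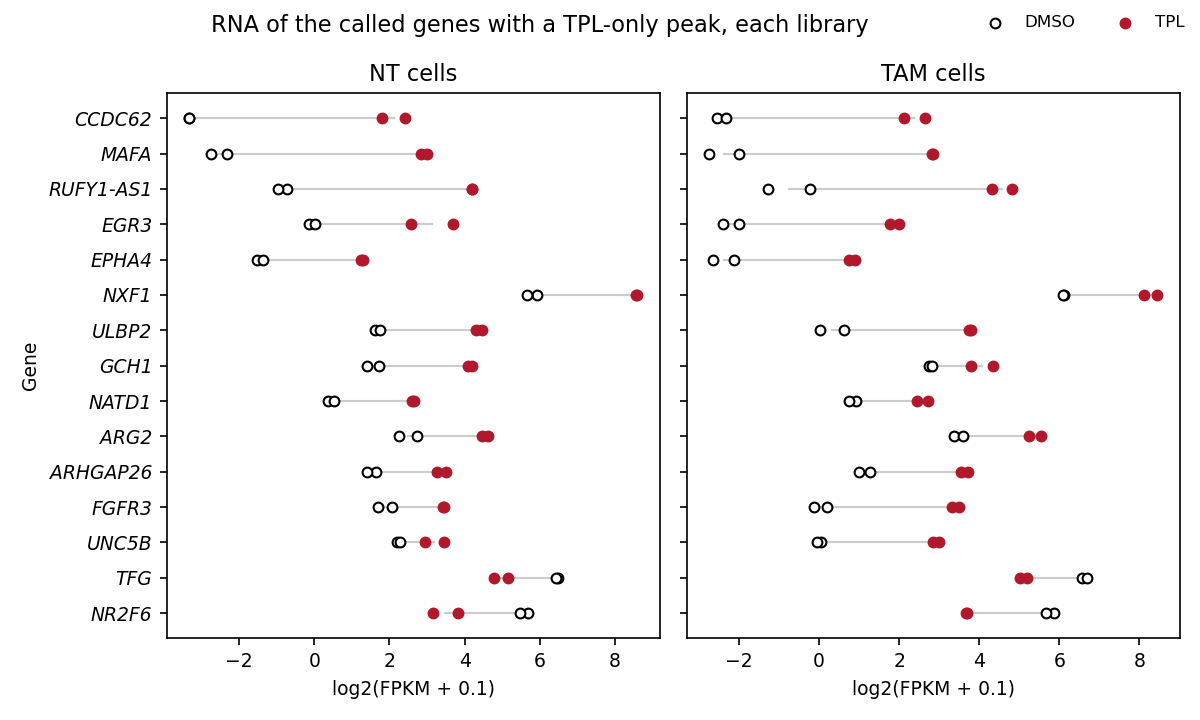
RNA level of the called genes named in the text, all with a TPL-only region, in each library, as log2 of FPKM with 0.1 added, in NT (left) and TAM cells (right), ordered by the fold change in NT cells. Open points are the 2 DMSO and filled points the 2 TPL libraries, and the line joins their means. In the genes above TFG and NR2F6 the TPL libraries lie to the right of the DMSO libraries.

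Other genes with a mean of at least 1 FPKM changed at the 0.05 level only. Of those that rose, DNAJB5-DT, the noncoding gene that starts beside the chaperone gene DNAJB5, had no read in any of the 4 DMSO libraries. It was at 4.92 and 6.41 FPKM in NT + TPL and 9.37 and 7.11 FPKM in TAM + TPL cells, at least 22.6-fold and 32.6-fold higher (adjusted p = 0.00324 and 0.00292 by edgeR). HAPLN3, a link protein of hyaluronan, has 2 entries for different transcripts, and the one at 0 in all DMSO libraries had 6.43 and 8.55 FPKM in NT + TPL and 1.88 and 2.59 FPKM in TAM + TPL cells, at least 85.6-fold and 25.8-fold higher (adjusted p = 0.00108 and 0.00223). Its other entry went from 1.49 and 2.12 to 8.40 and 26.4 FPKM in NT cells, so the 2 NT + TPL libraries differed widely there. DNAJB5-DT and the HAPLN3 entry at 0 under DMSO passed the filter on low counts through the TPL libraries alone. Their rises are partly set by the filter. Others fell. KMT5A, which methylates histone H4 at lysine 20, was at 34.3 and 25.8 FPKM in NT and 12.9 and 10.1 FPKM in NT + TPL, and at 30.6 and 28.7 FPKM in TAM and 9.65 and 8.94 FPKM in TAM + TPL cells (log2 fold changes -1.40 ± 0.183 and -1.72 ± 0.185, adjusted p = 0.00190 and 0.00111). SMC3, a cohesin subunit, was at 9.54 and 11.1 FPKM in NT and 2.96 and 4.08 FPKM in NT + TPL, and at 15.5 and 17.6 FPKM in TAM and 3.55 and 5.52 FPKM in TAM + TPL cells (-1.55 ± 0.267 and -1.91 ± 0.265, adjusted p = 0.00538 and 0.00264). With TAM, the Polycomb protein RING1 fell from 21.8 and 19.8 to 8.28 and 5.84 FPKM (-1.61 ± 0.235, adjusted p = 0.00323), and was at 19.7 and 19.5 FPKM in NT and 9.80 and 12.7 FPKM in NT + TPL cells (adjusted p = 0.0320, below the fold change required).

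CLUH, which binds mRNAs of mitochondrial proteins, fell from 57.2 and 63.5 to 17.8 and 15.4 FPKM in NT cells and with TAM from 41.2 and 26.45 to 14.7 and 12.2 FPKM (adjusted p = 0.00145 and 0.00510 by edgeR). PIGA, needed for the first step of the membrane anchor GPI, fell from 2.58 and 2.74 to 0.690 and 0.730 FPKM in NT cells and with TAM from 3.52 and 3.87 to 1.43 and 2.08 FPKM (adjusted p = 0.00436 and 0.0234). BMT2, a sensor of S-adenosylmethionine, fell in NT cells, from 3.32 and 3.39 to 1.2 and 0.36 FPKM (adjusted p = 0.0205). It was at 1.34 and 2.0 FPKM in TAM and 1.43 and 1.19 FPKM in TAM + TPL cells, where the libraries overlapped (adjusted p = 0.570).

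The most abundant genes of each class of regions, apart from NXF1 and TCF3 above, did not reach the required fold change. ATP5F1B, the beta subunit of ATP synthase, was at 337 and 287 FPKM in NT and 444 and 452 FPKM in NT + TPL cells (log2 fold change 0.52 ± 0.138, adjusted p = 0.0257 by edgeR). P4HB, a protein disulphide isomerase, was at 247 and 222 FPKM in NT and 275 and 282 FPKM in NT + TPL cells (adjusted p = 0.184). EIF3C, CSNK2B, HSPA1A, HDLBP, AGPAT1, KARS1 and DIAPH1 followed, with means between 53.5 and 246 FPKM. EIF3C and HSPA1A have near-identical copies, and CSNK2B, HSPA1A, AGPAT1 and RING1 lie in or beside the histocompatibility region, which hg19 also holds on haplotype contigs. Reads of such genes can be shared between copies in both assays, so their listing and levels are uncertain. No annotated start of P4HB or EIF3C lay in a DMSO peak, although both were above 200 FPKM in all 4 DMSO libraries. The nearest DMSO peak was 285 bases from the P4HB region and 87608 bases from the EIF3C region.

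Other lists held few members. Of 18 genes listed for transcription elongation control, which include the RNAPII subunit gene POLR2A, NELFA alone had an annotated start in a TPL-only region. NELFA is a subunit of the negative elongation factor. It had 17.4 and 16.9 FPKM in NT, 7.69 and 10.2 FPKM in NT + TPL, 18.8 and 15.8 FPKM in TAM and 11.0 and 8.71 FPKM in TAM + TPL cells, with log2 fold changes of -0.94 ± 0.217 and -0.86 ± 0.216 (adjusted p = 0.0159 and 0.0234 by edgeR), short of the fold change required. AFF1, also among the 18 genes, had a TPL-only region in its intron 2 that held no annotated start, 124 bases from a DMSO peak. RN7SK, the 7SK RNA that holds the elongation factor P-TEFb inactive, is outside the list of 18 and was added after its values were seen. Its region (chr6:52860311-52860530) was in the TAM + TPL list only, 164 bases from a DMSO peak. It was at 7.75 and 6.01 FPKM in NT, 14.5 and 44.5 FPKM in NT + TPL, 5.03 and 7.48 FPKM in TAM and 14.8 and 24.7 FPKM in TAM + TPL cells. The rise passed at 0.05 in NT cells (2.10 ± 0.624, adjusted p = 0.0367 by edgeR) and the change did not pass in TAM cells (1.58 ± 0.621, adjusted p = 0.0927). This RNA has many near copies and no poly-A tail. Over the 24 tested entries of that list 3 rose and 1 fell in NT cells and 4 rose and 0 fell in TAM cells at 0.05, where edgeR gave 1 rise and 0 falls at 0.001 in each state. Zinc finger genes named by number made up 12 of the 283 genes (4.24%), against 2.80% of the 13612 genes with a TSS in any listed peak. Of their 12 entries 1 rose at 0.05 in each state, ZNF211, which was at 0.590 and 0.860 FPKM in NT and 4.43 and 4.78 FPKM in NT + TPL cells (log2 fold change 2.72 ± 0.349, adjusted p = 0.00175). The 32 long noncoding genes had 14 tested entries, of which 3 rose and 0 fell at 0.05 in each state. The shares of all entries for these lists are 9.78% rises and 11.3% falls in NT and 9.05% and 10.1% in TAM cells. The 1 histone gene, H4C15, rose at 0.05 in both states, with a ratio in NT cells of 16.9 (95% exact interval 4.32 to 146, from 2 and 32 counts), and it has many near copies. The 4 genes of small nucleolar RNA or miRNA had no tested entry.

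A set of genes for mitosis was seen among the members after the lists had been joined, so no test was made of the set, and the p-values of its genes come from the fit over all entries. ASPM, BUB1B, CDC25C, CENPF, CENPW, DLGAP5, ERCC6L, ESPL1, NEK2 and SPC25 had their region in the NT + TPL list only, none within 1000 bases of a DMSO peak. They were picked by hand, so their shared listing is no result. Other members with a role in chromosomes or centrioles were placed otherwise, SMC3 in both TPL lists and 124 bases from a DMSO peak, and POC1A 256 bases from one. Their RNA did not move together. CDC25C, the phosphatase that starts mitosis, was at 0.120 and 0.190 FPKM in NT and 0.620 and 0.600 FPKM in NT + TPL cells, a rise at 0.05 (adjusted p = 0.0179 by edgeR, ratio 4.44 with a 95% exact interval of 1.63 to 15.1 from 5 and 21 counts). ERCC6L, a helicase of the centromere, was at 0.200 and 0.290 FPKM in NT and 0.790 and 0.830 FPKM in NT + TPL cells, also a rise (adjusted p = 0.0171). BUB1B, a spindle checkpoint kinase, fell in NT cells from 0.550 and 0.850 to 0.31 and 0.1 FPKM (adjusted p = 0.0379). With TAM, CENPF, a kinetochore protein, fell from 5.12 and 4.47 to 1.58 and 2.3 FPKM (adjusted p = 0.00981), and the other 6 passed in neither state. SPC25 was the most abundant, at 26.6 and 22.9 FPKM in NT and 25.1 and 40.1 FPKM in NT + TPL cells. BUB1B and DLGAP5 were higher in TAM + TPL than in NT + TPL cells (log2 differences 2.62 ± 0.527 and 2.33 ± 0.324, adjusted p = 0.0315 and 0.00779). The same order stood under DMSO, where BUB1B was at 0.550 and 0.850 FPKM in NT and 3.19 and 3.52 FPKM in TAM cells, and DLGAP5 at 0.360 and 0.410 FPKM in NT and 4.17 and 3.82 FPKM in TAM cells, a difference that was not tested. In the promoter windows of the 10 genes, TTTGAA or its complement was found in 6 of 10 and CCAAT in 8 of 10. The runs above show 4 CCAAT boxes and the element on the opposite strand in ASPM, and the element without a CCAAT box in BUB1B.

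Whether TPL acted differently in transformed cells was asked with the interaction of state and treatment. For 0 members the TPL effect differed between TAM and NT cells at 0.001 in edgeR, and 0% of all entries were called. At an unadjusted p under 0.05 the log2 effect was larger in TAM cells for 8 members and smaller for 19, and over all 16948 entries for 852 and 947. DESeq2 called 2 members. The nearest to the threshold in edgeR among the named genes was UNC5B (difference 2.03 ± 0.262, adjusted p = 0.0523), followed by FGFR3 (1.88 ± 0.305, adjusted p = 0.0997). Between TAM + TPL and NT + TPL cells no member was called at 0.001 in edgeR, against 0.596% of all entries. At an unadjusted p under 0.05, 24 members were higher and 28 lower in TAM + TPL cells, and over all 16948 entries 1546 and 2062. DESeq2 called 6 members higher and 5 lower. Its share over all entries is not given for this comparison or for the interaction, so these counts are no result about the members. For the TPL effect in NT cells DESeq2 also called more members than edgeR at 0.001, 39 rises and 13 falls against 10 and 2. The median log2 difference between TAM + TPL and NT + TPL cells was 0.08 over the 131 entries of the NT + TPL list only, -0.04 over the 52 of the TAM + TPL list only and 0.02 over the 70 of both lists. In that order, rises at 0.05 numbered 23 (17.6%), 14 (26.9%) and 14 (20%) in NT cells, against 9.78% of all entries, and 17 (13.0%), 13 (25%) and 18 (25.7%) in TAM cells, against 9.05%. Falls were 6.87%, 1.92% and 7.14% in NT cells, against 11.3%, and 7.63%, 1.92% and 5.71% in TAM cells, against 10.1%.

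**Figure D5:**
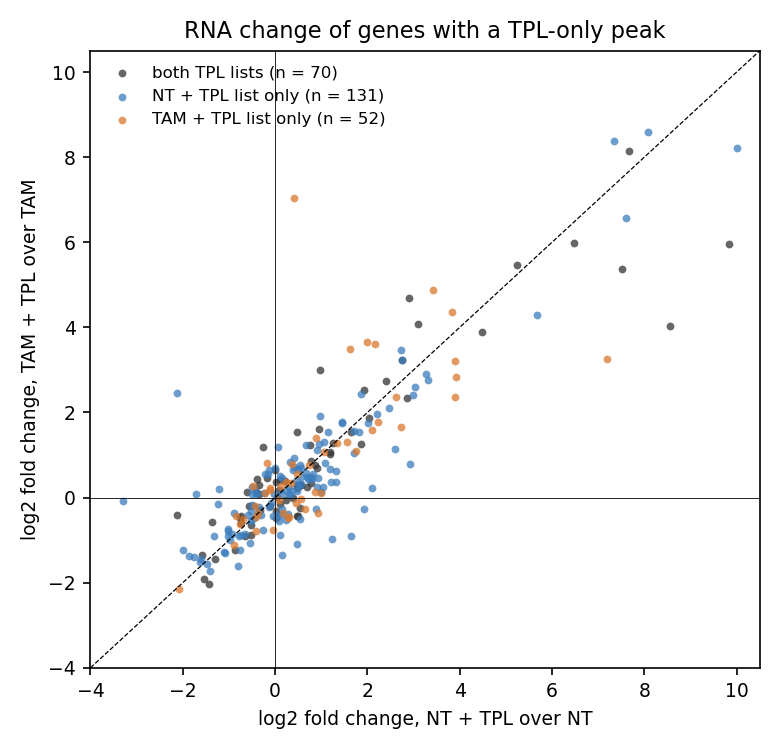
Log2 fold change with TPL in TAM cells against that in NT cells for the 253 tested entries, 1 point each, coloured by the TPL list that held the region (131, 52 and 70 entries). The points of the 3 classes overlap and lie along the dashed line of equal change, with medians of 0.36 in NT and 0.24 in TAM cells over all of them.

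The member promoters held less GC than those of the other listed peaks. In the 200-base window at the TSS the median GC content was 62.0% over the 283 member genes, 67.5% over 8911 canonical starts in regions of all 4 lists, 72.0% over 1248 in regions of both DMSO lists only and 65.0% over 19894 canonical starts of all protein-coding genes. Over 200 bases at the centre of the region it was 59.5%, 68.0% and 72.0% for the first 3. CCAAT was found in 37.5% of the member windows on either strand, against 30.7% for all 4 lists, 22.2% for both DMSO lists only and 29.8% for all protein-coding genes, the order kept below. A member window stood at the canonical start only where that lay in the region, and the other sets were taken at canonical starts alone. GGGCGG was found in 53.4%, against 68.8%, 77.6% and 56.2%. TATAAA was found in 7.07%, against 3.16%, 2.16% and 7.43%, so that members were near all protein-coding genes and above the genes of listed peaks. TTTGAA was found in 9.19%, against 5.05%, 2.88% and 7.42%. By list, CCAAT stood in 45.2% of windows of both lists, 33.6% of the NT + TPL list only and 35.8% of the TAM + TPL list only. Composition and motif content depend on one another, and no test was made of these shares.

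The depth of the RNA libraries was between 7461309 and 8349448 expected counts, and a TPL library listed between 19584 and 20156 entries and a DMSO library between 18485 and 18566. Of 8 markers of basal mammary epithelium 7 were at 1 FPKM or more in every library, and the sum of the 8 lay between 13018 and 14620 FPKM in NT, 8884 and 10875 FPKM in NT + TPL, 3400 and 3667 FPKM in TAM and 1737 and 1879 FPKM in TAM + TPL cells. No marker of fibroblasts went above 6.14 FPKM and none of endothelium above 1.69 FPKM, while the immune list reached 18.6 FPKM. The sum of the luminal list moved with TPL too, from between 206 and 255 to between 80.4 and 132 FPKM in NT cells. What part these shifts had in the results above was not tested.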

How the data were processed

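The authors made poly-A RNA libraries from 2 independent cultures of each group. They aligned the reads to reference transcripts with Bowtie2 and estimated gene levels with RSEM. The deposited expected counts are not normalized, and the deposited FPKM values are scaled to transcript length and to the mapped reads of the library. A gene with no read has no line in these files, and its value was taken as 0. The authors mapped the ChIP reads to hg19 with SOAP2 and called peaks over input with MACS 1.4.2, a version given by the submitters' processing notes as well. The 4 deposited lists hold starts and ends, counted from 0, with no score. The ChIP replicates and signal were not analysed here.

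Genes were those with a TSS of GENCODE release 44, placed on build 37, inside a region. RNA entries were matched by gene identifier and accession. Expected counts were rounded, scaled by TMM, filtered with filterByExpr and tested in edgeR 4.0.16 (quasi-likelihood, 4 groups in 1 fit, R 4.3.3), with Benjamini-Hochberg adjustment over 16948 entries. The script was tested on simulated data. Alternatives were DESeq2 1.42.0, other scalings, no filter, a replicate block, libraries left out and other definitions of the members. The depth of the peak lists is unknown. Precision was limited by 2 libraries per group.

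Genes named were, up to 12, the called members with the smallest p, then up to 4 rises and 4 falls per state at 0.05 with a mean of at least 1 FPKM and TPL libraries on 1 side of the DMSO libraries, then the most abundant members of each class, and members which the study discusses. Motif windows, gene lists and mitosis genes outside this rule are named as such in the text, as are ARG2, EPHA4 and TFG, which were called as well. A called gene and an abundant gene that the rule picked are not reported here. The regions and the lists were chosen with earlier results of these data known.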

Additional observations from a re-analysis of the deposited data

Results flagged for a closer look

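Among the named genes, 2 had TPL libraries on opposite sides of their DMSO libraries in the 2 states, and the interaction test in edgeR did not pass for either. HSPA1A, which encodes an HSP70 chaperone, was at 144 and 152 FPKM in NT, 173 and 193 FPKM in NT + TPL, 253 and 260 FPKM in TAM and 209 and 179 FPKM in TAM + TPL cells. Its effect in TAM minus that in NT cells was -0.75 ± 0.203 on the log2 scale (adjusted p = 0.284 by edgeR). EIF3C, a subunit of translation initiation factor 3, was at 244 and 248 FPKM in NT, 233 and 224 FPKM in NT + TPL, 247 and 225 FPKM in TAM and 278 and 272 FPKM in TAM + TPL cells, a difference of 0.28 ± 0.162 (adjusted p = 0.569 by edgeR). Both genes have near-identical copies.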

How the results depend on the processing

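The number of TPL-only regions was 837 when at least 50% of a region had to be covered to count as shared, 260 when a DMSO peak within 1000 bases counted as shared, 293 when peaks up to 1000 bases apart were merged and 74 among TPL peaks at least 500 bases wide. For the calls at 0.001, rises are given first and falls second. In NT cells (10 and 2 as reported) the falls became 1 with DESeq2 size factors, 0 with library sizes only, 0 with the upper quartile, 4 without the filter, 0 with the canonical TSS in the region and 1 with no DMSO peak within 1000 bases. The DESeq2 test gave 39 and 13, entries summed per symbol 31 and 8, an adjusted p of 0.05 gave 51 and 15, and members in both lists only gave 6 and 0. In TAM cells (10 and 2 as reported) the falls became 1, 0, 0, 4, 0 and 1 under the same 6 settings, and the other settings gave 37 and 13, 28 and 12, 48 and 15, and 6 and 0. Leaving out 1 library at a time left 0 to 1 rises and 0 falls in NT cells and 0 to 10 rises and 0 to 2 falls in TAM cells, with fewer samples and residual degrees of freedom in each fit, and the group with 1 library left was assumed to vary like the others. For the interaction DESeq2 gave 2 higher members. For TAM + TPL against NT + TPL cells 2 were lower without the filter, 6 and 5 were higher and lower with DESeq2, 2 and 4 with summed entries and 6 and 5 at 0.05. The counts at 0.001 in this paragraph stand without the share of all entries under each setting, so they are no result about the members. At 0.05 the DESeq2 test gave 54 rises and 16 falls in NT cells (9.9% and 11.3% of all entries). In TAM cells it gave 52 and 14 (9.37% and 10.1%). Summed entries gave 55 and 15 in NT (12.5% and 12.6%) and 53 and 17 in TAM cells (11.9% and 11.5%).

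Same-numbered libraries of 2 groups did not deviate together (correlations over entries between -0.135 and 0.0501), and the main fit did not pair libraries by number. The correlations cannot show whether same-numbered cultures were handled together. With a replicate block 0 rises and 0 falls were left at 0.001 in either state, while 47 rises and 15 falls were called in NT (8.29% and 10.7% of all entries) and 41 and 16 in TAM cells (7.42% and 9.50%) at 0.05. With the NT numbers crossed, added after the data were seen, 4 rises and 0 falls were called in NT cells. For single named genes 810 of 1023 values kept direction and side of the threshold, and 10 near 0 changed sign. These were AGPAT1 in TAM cells (0.01 with library sizes only, 0.20 with the upper quartile, and, with each library left out, -0.19 to 0.11) and CSNK2B in NT cells (-0.01 without the filter, and, with each library left out, -0.08 to 0.12). With the upper quartile the others were DIAPH1 in TAM cells (0.05), EIF3C in NT cells (0.11) and KARS1 in NT (0.13) and TAM cells (0.11). The cause of these shifts was not tested.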
